A study of Gallus gallus with 6 samples.

Results

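The growth hormone (GH) and insulin-like growth factor (IGF) axis was followed in chicken leg muscle through 10 genes: the ligands IGF1 and IGF2, the receptors GHR, IGF1R and IGF2R, the binding proteins IGFBP2, IGFBP3, IGFBP5 and IGFBP7, and DLK1. They were chosen by name, from 13365 gene symbols in the deposited tables, and not by their values. Earlier results of these data were known when they were chosen. Leg muscle of Xinghua chickens, an indigenous and slow-growing breed, came from embryos of 11 days (E11) and 16 days (E16) and from chicks 1 day after hatching (D1, named P1 in the labels). There were 2 libraries per stage, 6 in all, made from total RNA after removal of ribosomal RNA, and the labels give female for every library. The labels name neither the muscles of the leg nor the animals behind each library.

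GH from the pituitary acts through GHR, and in the liver and other tissues this receptor raises IGF1 through the kinase JAK2 and STAT5 factors. IGF1 and IGF2 bind IGF1R, a receptor tyrosine kinase that drives growth of myoblasts and fibers, while IGF2R carries lysosomal enzymes and, in mammals, also takes up IGF2. IGFBPs bind the ligands outside the cell and are cut by proteases such as PAPPA. DLK1 is a membrane protein related to Notch ligands that is known in mammals for its part in muscle and fat cell development.

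For each pair of stages, the deposited table gives 1 FPKM per transcript and stage, meaning fragments scaled by the length of the transcript and by how many mapped. The authors merged both libraries of a stage in this value, so no error, no test between stages and no statement on replicates can be given from the FPKM values below. The tables also hold the results of the authors' own test, which were left out by choice. The study reports the mapped reads of each library. The tables hold no read counts, so the number of fragments behind a single value is not given. Log2 ratios are those of FPKM + 0.1, later over earlier stage, which understates differences of low genes. A gene is called higher or lower where this ratio reaches 2-fold, a limit of size only. The 3 tables differ by a near-constant scale: at E16, the value in E16 vs. D1 over that in E11 vs. E16 had a median of 0.705 across transcripts and lay between 0.704 and 0.706 for the 10 genes. For statements over 3 stages, the D1 value of E16 vs. D1 was therefore divided by that median, called the common scale below. Fewer cells of a type and less RNA per cell cannot be told apart in such bulk samples.

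The tissue was checked by 8 skeletal muscle markers with an entry, such as ACTA1 and TNNT3, whose summed level was 1372, 37235 and 54886 at E11, E16 and D1 on the common scale, with none at 0. The sum rests mainly on contractile genes. MYOG (myogenin), which drives differentiation of myoblasts, went the other way, at 17.1, 15.1 and 2.08. Markers of kidney epithelium and cartilage were present too, with their highest sums at E11. The 6 kidney markers found summed to 99.2, 2.44 and 0.868, with SLC13A3 at 49.9 and CALB1 at 36.6 at E11. The 6 cartilage markers found summed to 209, 66.2 and 50.1, mainly through COL11A1 at 173, 61.9 and 47.7. At D1, COL9A1, ACAN, HAPLN1 and MATN3 stood at 0.572, 0.699, 0.756 and 0.352, and MATN1 at 0. The part of such tissue in the ratios from E11 of the 10 genes was not tested. Each gene was first placed by its locus, because 2 symbols stood on 2 chromosomes. The tables list 11 entries under the members' names, 8 of the genes being matched by symbol. IGF1 is written IGF-I, a RefSeq synonym, and appears at chromosome 1, 55432530 to 55480957 (galGal4), the chromosome on which RefSeq has IGF1, and again at chromosome 10, 16180774 to 16320955. The latter lies between FAM169B and SYNM. In RefSeq (assembly GRCg7b) 4 named genes lie between these, of which ARRDC4 and MIR1813-2 have entries of their own in the tables. Of the other two, IGF1R spans 147 kb and PGPEP1L 11.5 kb, against 140 kb for the entry. The chromosome 10 entry was therefore read as IGF1R, by place and not by symbol. GHR has an entry at chromosome Z, 13287241 to 13417571, between FBXO4 and CCDC152 as in RefSeq. A second GHR entry at chromosome 12, 19434378 to 19444446, lies between IRAK2 and CAND2, where RefSeq lists GHRL (ghrelin) and SEC13 and no GHR. Its FPKM was 1.62 at E11 and 1.39 at E16, and it was not counted as GHR. Were the higher IGF-I entry read as IGF1 by symbol alone, the lower IGF1 at D1 described below would not be seen.

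Over the first step, from E11 to E16, GHR, IGFBP7 and DLK1 stood higher and IGFBP5 lower. Over hatching, from E16 to D1, IGFBP5 and IGFBP7 stood higher and IGF1 lower. No stage between E16 and D1 was sampled, so a difference over this step cannot be placed at hatching itself. Of the 10 genes, 3 were higher and 1 lower from E11 to E16, where 12.7% and 11.5% of all 10669 measured genes (FPKM of at least 1 at either stage) passed the same limit upwards and downwards, 24.2% in all. From E16 to D1, 2 were higher and 1 lower, beside 10.5% and 9.67% of 9907 genes, 20.2% in all. From E11 to D1, 2 were higher (GHR, IGFBP7) and 1 lower (IGF1), beside 20.5% and 19.7% of 10524 genes, 40.1% in all. The median log2 ratio of the 10 genes was 0.07, 0.05 and 0.32 for these comparisons, and that of all genes -0.0045, 0.05 and 0.03. The member just outside the limit was IGFBP3 at 0.59 from E11 to E16, DLK1 at -0.62 from E16 to D1 and IGFBP3 at 0.95 from E11 to D1. With 10 genes and no error, these counts are a description. The comparisons share stages and are not independent of each other.

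**Figure D1:**
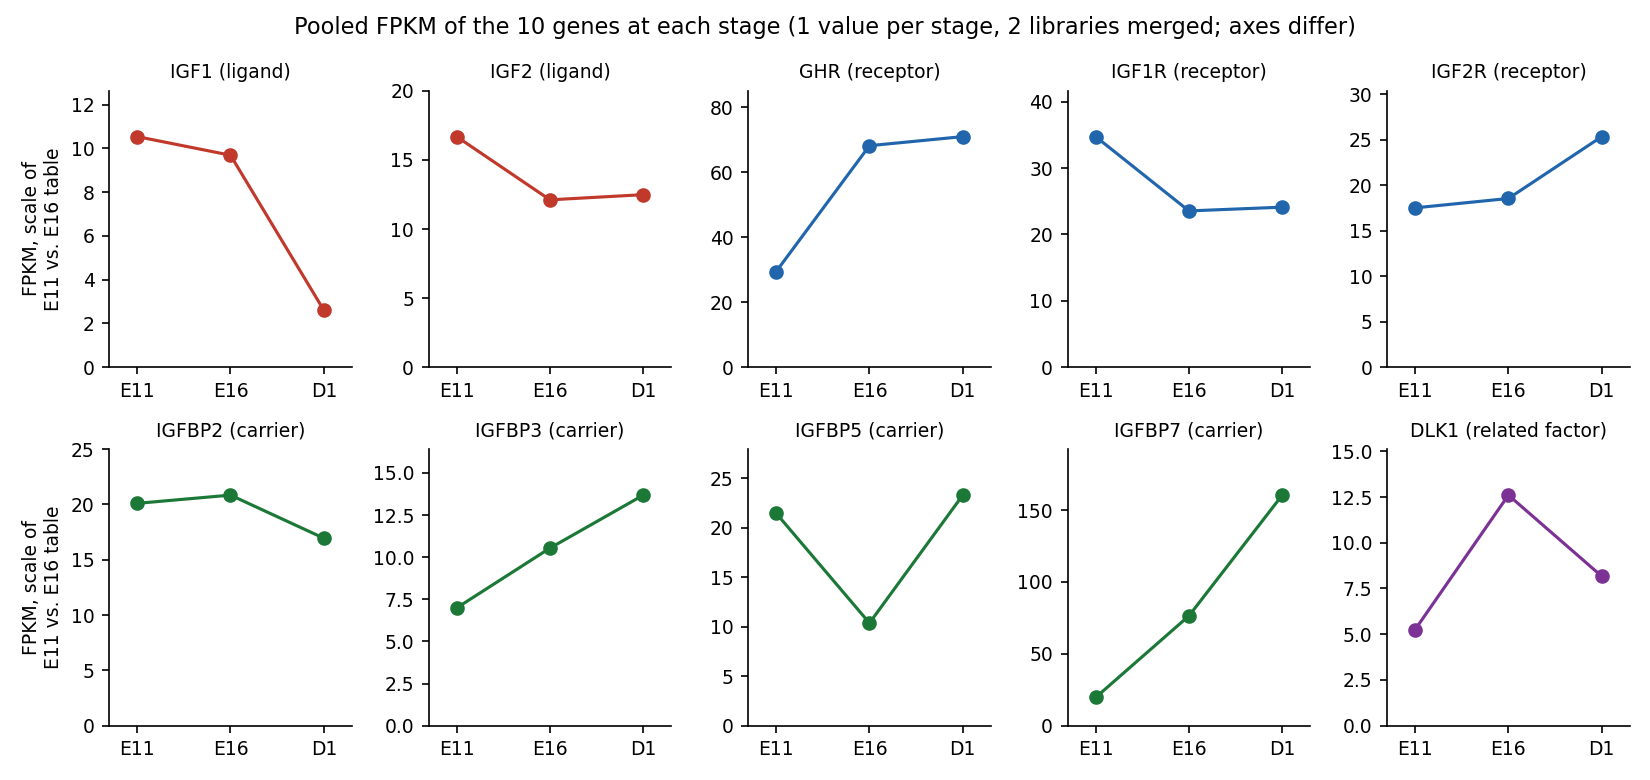
Pooled FPKM of each gene (y axis, from 0, common scale, axes differ between panels) at E11, E16 and D1 (x axis), 1 point per stage with both libraries merged and no error bars. IGF1R is the chromosome 10 entry. IGF1 ends at 2.60 at D1, IGFBP7 goes from 19.6 to 160.4, and IGFBP5 is lowest and DLK1 highest at E16.

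Of the 2 ligands, IGF1 was lower after hatching and IGF2 stayed within 2-fold. IGF1, which stimulates growth of muscle and bone, had an FPKM of 10.5 at E11 and 9.69 at E16 in E11 vs. E16. In E16 vs. D1 it had 6.84 at E16 and 1.84 at D1, a log2 ratio of -1.84, which is 3.58-fold lower. The ratio of 96.6% of the measured genes lay above it at that step. Directly from E11 to D1 its FPKM was 8.74 and 2.15, 3.92-fold lower. IGF2, the main fetal IGF of mammals, had an FPKM of 16.7 at E11 and 12.1 at E16, a log2 ratio of -0.46, and of 8.53 at E16 and 8.81 at D1, a log2 ratio of 0.05. The level of IGF2 was 1.58 times that of IGF1 at E11, 1.25 times at E16 and 4.79 times at D1.

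The summed level of both ligands on the common scale was 27.2, 21.8 and 15.1 at E11, E16 and D1. Other ligands that act on related receptors stood low: on the common scale GH had an FPKM of 0.155 at E11, 0.117 at E16 and 0.969 at D1, and prolactin (PRL) of 0.571, 0.441 and 0.597. Insulin (INS), whose gene lies next to IGF2, was listed at 0 at every stage. Fibroblasts are a cell type known to make IGF1. Of 6 measured fibroblast markers, none was higher and 1 lower (LUM) from E16 to D1, beside 10.5% and 9.67% of all genes. The summed level of the 7 fibroblast genes found was 5507 at E16 and 3858 at D1, with none at 0. Liver is the main source of IGF1 in blood. Of 6 measured liver markers, 1 (APOA1) was higher and 4 were lower at that step, beside the same 10.5% and 9.67% of all genes. On the common scale APOA1 stood at 46.7 at E16 and 573 at D1, and ALB at 6.03 and 0.444, while TTR was listed at 0 at D1. The summed level of the 8 liver genes found was 125 at E16 and 609 at D1, and it rests mainly on APOA1 at D1. As ALB, FGB, AHSG and F2 were lower, this sum is not read as a level of liver. The source of APOA1 in these samples was not tested. The part of either list in the lower IGF1 was not tested.

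The receptors differed from each other. GHR, the receptor of GH, had an FPKM of 29.4 at E11 and 68.2 at E16, 2.31-fold higher, and of 48.1 at E16 and 50.1 at D1, a log2 ratio of 0.06. It stood higher at E16 than at E11 and had nearly the same level at D1 as at E16. IGF1R by place had an FPKM of 34.7 at E11 and 23.5 at E16, a log2 ratio of -0.56, and of 16.6 at E16 and 17.0 at D1. IGF2R had 17.5 at E11 and 18.5 at E16, and 13.1 at E16 and 17.9 at D1, log2 ratios of 0.08 and 0.45. None of the IGF receptors reached 2-fold at any step. The level of IGF1R was 1.98 times that of IGF2R at E11, 1.27 times at E16 and 0.951 times at D1. The level of GHR was 2.79 times that of IGF1 at E11, 7.04 times at E16 and 27.3 times at D1.

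Fat cells also carry GHR, and their markers moved over the same step. All 5 measured (PLIN1, FABP4, ADIPOQ, LPL, CIDEC) were at least 2-fold higher at E16 than at E11, with a summed level of 19.7 and 884, and none was at 0. Of all genes, 12.7% were higher at that step. Of 8 skeletal muscle markers, 6 were higher, with a summed level of 1372 at E11 and 37235 at E16. Of 8 endothelial markers, 4 were higher. From E16 to D1, where GHR was level, 1 of 5 fat cell markers (ADIPOQ) was higher, beside 10.5% of all genes. The part of any of these lists in the level of GHR was not tested.

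**Figure D2:**
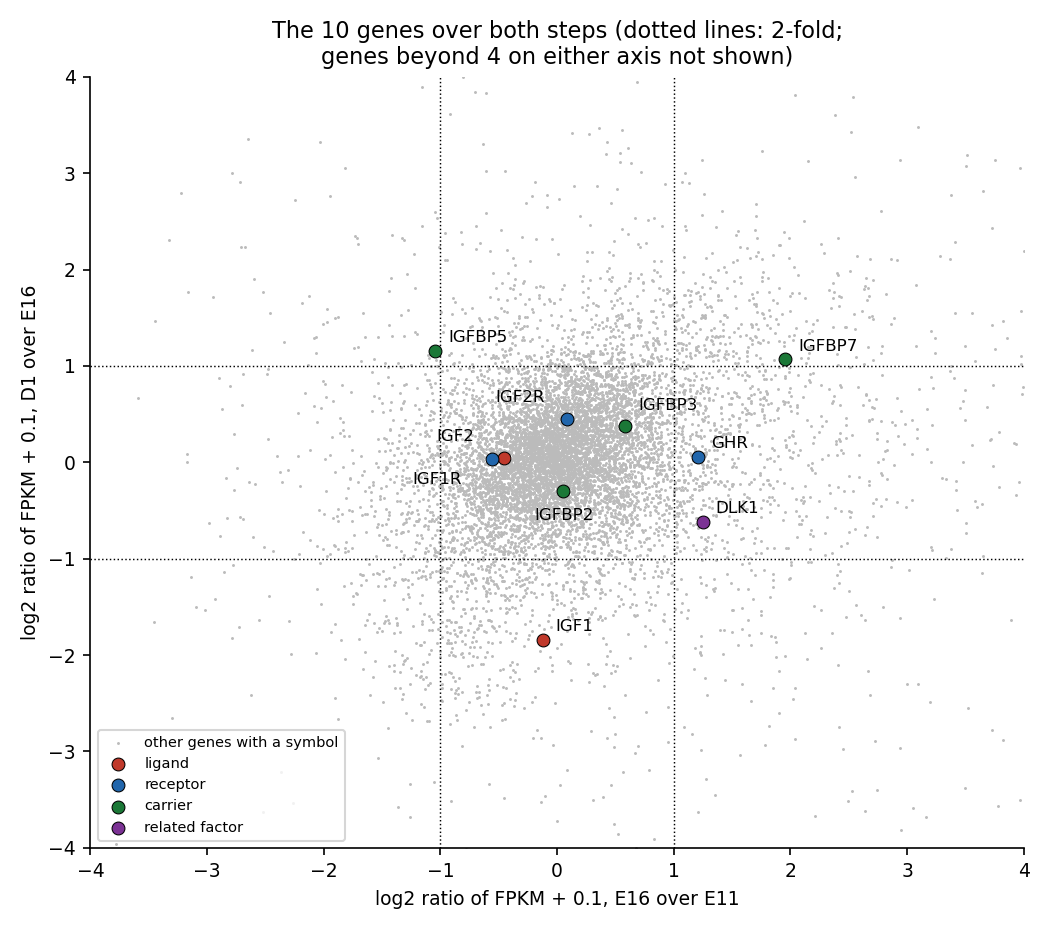
Log2 ratio of E16 over E11 (x axis) and of D1 over E16 (y axis) for the 10 genes, coloured by role, and for the other genes with a symbol (grey); both axes use the E16 libraries. IGFBP7 stands past 2-fold on both axes upwards, IGFBP5 down and then up, and IGF1 only in the second step; IGF2, IGF1R, IGF2R, IGFBP2 and IGFBP3 lie inside the dotted lines.

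IGFBP7 stood out among the binding proteins. It is a secreted protein of vessel walls and stroma that binds IGFs weakly. Its FPKM was 19.6 at E11 and 76.4 at E16, 3.88-fold higher, and 53.8 at E16 and 113 at D1, 2.10-fold higher. In E11 vs. D1 it had 16.3 and 133, 8.11-fold higher, a ratio above that of 96.0% of measured genes. Of 8 endothelial markers, 4 were at least 2-fold higher and none lower from E11 to E16, where 12.7% of all genes were higher. From E16 to D1, 1 (VWF) was higher, beside 10.5% of all genes, and the median log2 ratio of the list was 0.32. From E11 to D1, 6 were higher, beside 20.5% of all genes. The summed level of the 8 markers was 144, 363 and 514 at E11, E16 and D1, and none was at 0. Other lists also rose from E11 to E16: 5 of 5 fat cell and 6 of 8 skeletal muscle markers were higher, beside the same 12.7%. The part of any of these lists in the level of IGFBP7 was not tested.

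IGFBP5, the binding protein most tied to differentiating myoblasts in mammals, went the other way and back. Its FPKM was 21.5 at E11 and 10.4 at E16, 2.06-fold lower, and 7.31 at E16 and 16.4 at D1, 2.23-fold higher. E16 was thus its lowest stage, and E11 and D1 differed by a log2 ratio of 0.11 (FPKM 17.8 and 19.3). Its first ratio of -1.04 was the call nearest the limit, and it is not called with a pseudocount of 1. Markers of cartilage and kidney epithelium were also lower at E16 than at E11. All 5 measured of cartilage were lower, with a summed level of 209 and 66.2, mainly COL11A1 (173 and 61.9). Of kidney epithelium 4 of 5 were lower, with 99.2 and 2.44. Other lists went the other way: 6 of 8 skeletal muscle, 5 of 5 fat cell and 4 of 8 endothelial markers were higher. Of all genes, 11.5% were lower and 12.7% higher at that step. From E16 to D1, where IGFBP5 was higher, 2 cartilage markers and 1 kidney marker were still measured, too few to read a count from. None of these was higher, while COL9A1 of cartilage and LHX1 of kidney were lower, beside 10.5% and 9.67% of all genes. MATN1 of cartilage was listed at 0 at D1, and UMOD of kidney (written ZPD) at every stage. The part of any of these lists in the level of IGFBP5 was not tested.

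IGFBP2 and IGFBP3 stayed within 2-fold throughout. The locus listed for IGFBP2 lies 7.56 kb from the locus listed for IGFBP5 on chromosome 7 (IGFBP5 22561599 to 22750389, IGFBP2 22757948 to 22808688). The locus listed for IGFBP5 spans 188.8 kb and is also given to 8 lncRNAs. It need not be the extent of the gene, so 7.56 kb need not be the distance between the genes. In RefSeq, TNS1 lies with IGFBP5 between RUFY4 and IGFBP2. The FPKM of IGFBP2 was 20.1 at E11 and 20.8 at E16, and 14.7 at E16 and 11.9 at D1, with log2 ratios of 0.05 and -0.30. At E11 IGFBP5 and IGFBP2 stood at nearly the same level, IGFBP5 at 1.07 times IGFBP2, whereas at E16 this ratio was 0.498 and at D1 1.38. IGFBP3, the main carrier of IGFs in mammalian blood, had an FPKM of 6.99 at E11 and 10.5 at E16, and of 7.43 at E16 and 9.65 at D1. Directly from E11 to D1 its log2 ratio was 0.95 (FPKM 5.80 and 11.3), just outside the limit.

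Among 6 IGFBP genes with an entry, the largest share of the summed level moved from IGFBP4 at E11 to IGFBP7 at E16 and D1. IGFBP4, which inhibits IGF action until PAPPA cuts it, had 54.7% of their summed level at E11, 32.5% at E16 and 17.0% at D1. IGFBP7 had 12.8%, 43.2% and 62.0%. The summed level was 153, 177 and 259 on the common scale, and without IGFBP7 it was 133, 100.3 and 98.4. Of the sum without IGFBP7, IGFBP4 had 62.7%, 57.3% and 44.6%, the largest share at each stage. The log2 ratio of IGFBP4 was -0.54 from E11 to E16, -0.39 from E16 to D1 and -0.93 from E11 to D1, within 2-fold each time. IGFBP1 stayed at or under 1.08. IGFALS, whose product joins IGFs and IGFBPs in a complex in mammalian blood, had an FPKM of 0.0144, 0.428 and 0.494. These shares are of transcripts per length and not of protein.

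**Figure D3:**
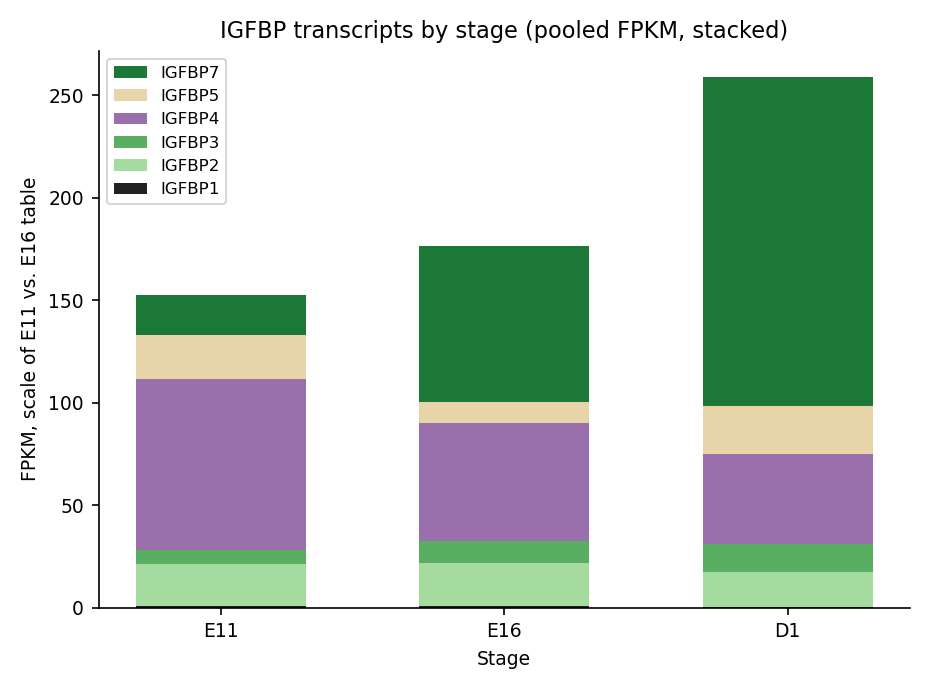
Stacked pooled FPKM of 6 IGFBP genes (y axis, common scale, from 0) at E11, E16 and D1 (x axis), without error bars. The IGFBP7 part goes from 19.6 to 76.4 and 160.4, and the IGFBP4 part from 83.5 to 57.5 and 43.9.

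DLK1 was highest at E16. Its FPKM was 5.25 at E11 and 12.6 at E16, 2.37-fold higher, and 8.88 at E16 and 5.76 at D1, a log2 ratio of -0.62. Directly from E11 to D1 the log2 ratio was 0.62 (FPKM 4.36 and 6.76). The gene lies at chromosome 5, 48844046 to 48853652, between BEGAIN and PPP2R5C. Of 9 measured Notch ligands, receptors and targets, none was higher from E11 to E16 and 1 was lower (NOTCH1, FPKM 21.6 and 10.4). Of all genes, 12.7% and 11.5% were. From E16 to D1 only HES1, a Notch target, was higher (FPKM 1.67 and 5.72) and none lower, beside 10.5% and 9.67% of all genes. From E11 to D1, NOTCH2 (FPKM 60.4 and 17.5) and NOTCH1 (FPKM 17.9 and 7.55) were lower and 2 others of the 9 higher. Of all genes, 19.7% were lower and 20.5% higher, so nothing particular to this list is read from the counts.

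The order of the genes by level followed these differences. At E11 it ran from IGF1R and GHR at the top through IGFBP5, IGFBP2, IGFBP7, IGF2R and IGF2 to IGF1, IGFBP3 and DLK1 at the bottom. At E16 and D1, IGFBP7 was first and GHR second, and IGF1 was last. From the second to the next gene the level was 2.90-fold lower at E16 and 2.80-fold at D1. At D1, DLK1 in the ninth place was 3.14-fold above IGF1. Neighbours such as IGFBP5 and IGFBP2 at E11 (1.07-fold) or IGF2R and IGF1R at D1 (1.05-fold) were close, and with 1 value per stage no neighbouring pair could be tested.

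Other genes of the axis were read from lists with 58 genes found of 73 names. From E11 to E16, 4 of 52 measured were higher and 8 lower, beside 12.7% and 11.5% of all genes. From E16 to D1, 7 of 48 were higher and none lower, beside 10.5% and 9.67%, and from E11 to D1 13 of 51 were higher and 8 lower, beside 20.5% and 19.7%. Nothing particular to these lists is read from the counts. In GH receptor signalling, CISH, a feedback inhibitor induced by STAT5, had an FPKM of 3.29 at E16 and 31.0 at D1, a log2 ratio of 3.20. No other gene of this list was called at that step. Directly from E11 to D1, CISH had 2.88 and 36.3. SH2B2, an adaptor of JAK2, was higher from E11 to E16 (FPKM 0.899 and 5.23) and from E11 to D1 (FPKM 0.747 and 5.13). SOCS2, an inhibitor of GHR signalling, was lower from E11 to E16 (FPKM 1.48 and 0.307) and within 2-fold from E11 to D1. SOCS3 of the same list was higher from E11 to E16 (FPKM 0.920 and 2.47) and from E11 to D1 (FPKM 0.763 and 3.25). The prolactin receptor PRLR was lower from E11 to E16 (FPKM 2.97 and 1.41) and from E11 to D1 (FPKM 2.46 and 1.04). STAT5A, STAT5B and INSR were not analysed here.

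The IGFBP proteases and their inhibitors had a median log2 ratio of -0.96 from E11 to E16. Of 8 genes 1 was higher and 4 lower, where 12.7% of all genes were higher and 11.5% lower. As the list pools proteases with inhibitors, its median gives no direction for the cutting of IGFBPs. PAPPA (FPKM 8.58 and 3.40) and STC2 (FPKM 5.85 and 1.59) were among the lower genes. The protease PAPPA2 (FPKM 1.54 and 0.0590) and STC1 (FPKM 4.48 and 0.493), of the stanniocalcins that inhibit PAPPA in mammals, were lowest against E11, and from E11 to D1 PAPPA2 had 1.28 and 0.282. From E16 to D1 both stanniocalcins were higher, STC2 by a log2 ratio of 3.06 from an FPKM of 1.12, and STC1 by 1.71 from 0.345. The protease HTRA1 was higher at D1 than at E11 (FPKM 30.96 and 134.7), and already at E16 (FPKM 37.3 and 169).

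Downstream of IGF1R and the insulin receptor, 1 of 21 measured genes was higher and none lower from E11 to E16, where 24.2% of all genes were past 2-fold. It was EIF4EBP1, an inhibitor of translation that mTOR switches off (FPKM 224 and 463). From E16 to D1 3 were higher and none lower, beside 10.5% and 9.67% of all genes, led by GRB10, an adaptor that inhibits IGF1R and the insulin receptor (FPKM 9.18 and 45.4), and by PIK3R1, the regulatory subunit of PI3-kinase (FPKM 34.5 and 105). The median log2 ratio of this list at that step was 0.55, and that of all genes 0.05. From E11 to D1 6 of 21 were higher and none lower, beside 20.5% and 19.7% of all genes, led by GRB10 (FPKM 7.69 and 53.3) and EIF4EBP1 (FPKM 186 and 901). Of the RNA-binding IGF2BP proteins, which bind IGF2 mRNA in mammals, IGF2BP1 (FPKM 22.5 and 6.07) and IGF2BP3 (FPKM 44.5 and 15.9) were lower from E11 to D1, while IGF2BP2 had a log2 ratio of -0.43. IGF2BP1 was lower already from E11 to E16 (FPKM 27.2 and 11.6), where IGF2BP2 and IGF2BP3 had log2 ratios of -0.02 and -0.94. None of the 3 was past 2-fold from E16 to D1.

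**Figure D4:**
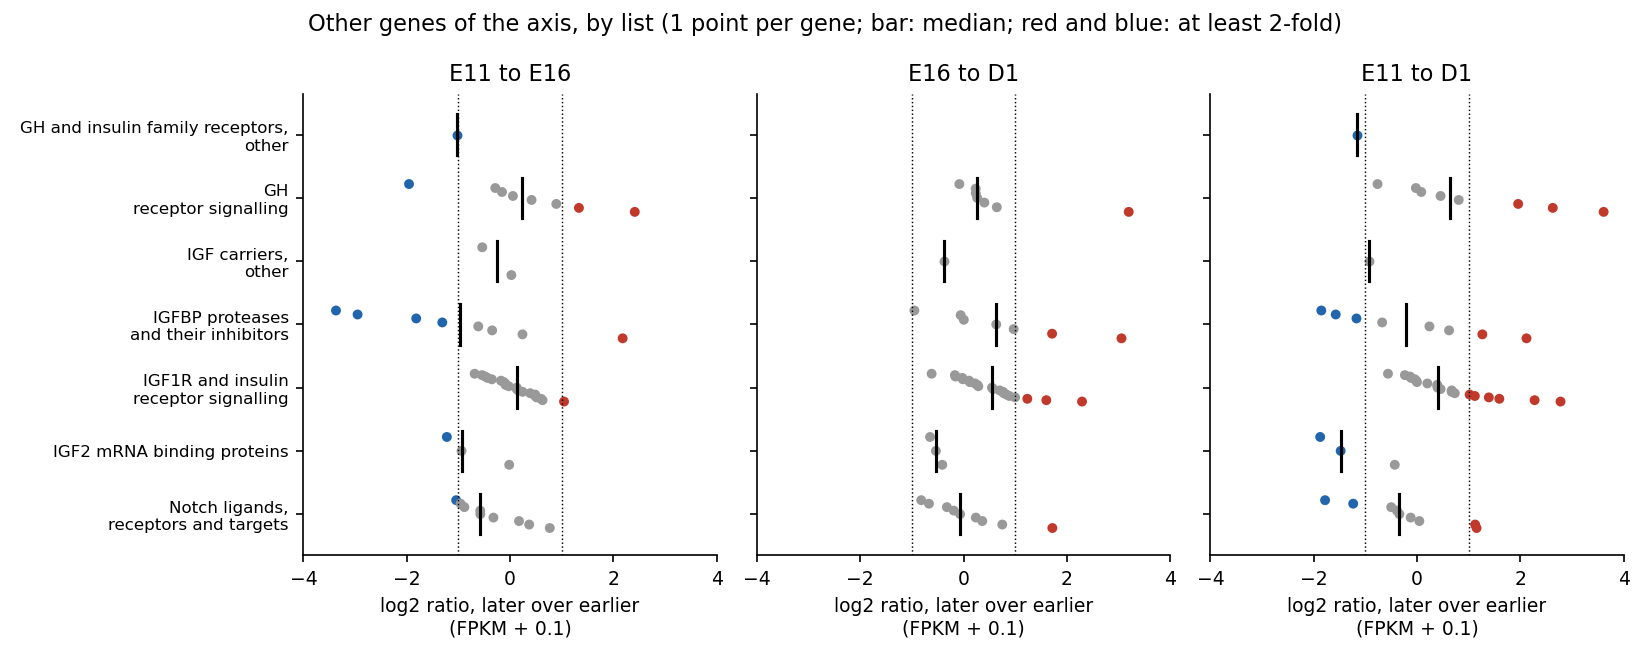
Log2 ratios of the other genes of the axis (x axis, 1 point per gene, later over earlier stage) by list (y axis) for the 3 comparisons; black bars are medians, and red and blue points are at least 2-fold higher or lower. CISH at 3.20, STC2 at 3.06 and GRB10 at 2.29 lie far right from E16 to D1, and 4 of 8 genes of the protease list lie left of the limit from E11 to E16.

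LncRNAs were sought within 300 kb of each of the 10 genes, the window the study used, and none lay there for IGF1 and GHR. The share of all genes with a lncRNA in this window was not computed, so nothing particular to the 10 genes is read from this. Below, the nearest with an FPKM of at least 1 at a stage is given; the only one by IGF1R did not reach 1. Nearest to IGF2 was lnc00071633, 11.1 kb away on chromosome 5, with 0.242 FPKM at E16 and 1.55 at D1. By IGF2R, lnc00052651 was listed at 0 at E11 and at 1.12 at E16. Beside DLK1, lnc00073545, 72.95 kb away, had 0.240 at E11 and 1.17 at E16, and 0.827 at E16 and 0.759 at D1. It was higher with DLK1 over the first step and not called over the second. The study proposes DLK1 as a target of this lncRNA, and its quantitative PCR also had both higher at E16 than at E11. Farther from DLK1, at 163.9 kb, lnc00073576 did not move with it. Its log2 ratio was -0.64 from E11 to E16 and 3.56 from E16 to D1 (0.148, 0.0590 and 2.23 on the common scale). By IGFBP3, lnc00039430 stood on the common scale at 0.743 at E11, was listed at 0 at E16 and stood at 1.51 at D1. By IGFBP7, lnc00065755 had 1.60 and 1.83 at E11 and E16. The IGFBP5 locus is shared with 8 lncRNAs, all given the same start and end, so none is nearer to IGFBP5 or IGFBP2 than another. Of these, 3 reached an FPKM of 1, and they differed in direction. The level of lnc00079521 was 1.60 at E11 and 1.14 at E16, and it was listed at 0 at D1. In contrast, lnc00081383 had 0.613 at E16 and 1.31 at D1 (log2 ratio 0.99), and lnc00081385 had 0.556 and 1.27 (log2 ratio 1.06). No source used here describes strand-specific libraries, so reads of transcripts that overlap at this locus may be split uncertainly between them.

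The genes most like a member were sought by the distance between their 2 log2 ratios, E11 to E16 and E16 to D1, over 3 stages and 10745 genes. For IGF1 this was HPCAL4 (distance 0.01, FPKM only 1.06 at E11). For GHR it was EMC6 (0.01), for IGFBP5 SYDE1 (0.01), for IGFBP7 CPEB3 (0.05) and for DLK1 LSM14B (0.06). Within a distance of 0.25 lay 20 genes for IGF1 and for IGFBP5, 28 for IGFBP7, 50 for DLK1 and 91 for GHR, against 584 for IGF2. The ratios of all genes centre near 0, so members past 2-fold have fewer genes near them by their position alone. Over 2 ratios, such likeness is a description.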

How the data were processed

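Per the submitters' processing notes and the study's methods, the authors cleaned the reads (Trim Galore), removed ribosomal reads, aligned the rest to galGal4 with TopHat and Bowtie, assembled transcripts with Cufflinks and compared stages with Cuffdiff. The deposited FPKM of a transcript pools the 2 libraries of a stage, and the authors scaled each of the 3 pairs of stages separately. The tables' columns of fold change, test statistic, p and q hold the authors' own comparison and were not used. Transcripts whose estimate failed under too many fragments (16) were left out.

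Symbols were matched to RefSeq names and synonyms (GRCg7b, names and gene order only). Each member and listed gene was represented by its entry with the highest mean FPKM on the chromosome RefSeq gives (IGF1R by place). The background of all genes took the highest entry per symbol and chromosome. A symbol on several chromosomes, such as ACTG1, was therefore counted on each, and small RNAs such as 7SK were kept. Background genes had an FPKM of at least 1 at 1 stage. Log2 ratios used a pseudocount of 0.1 and a limit of 2-fold, with no test, since values are pooled. The calculation was tested on simulated data without noise, with every change put in lying past the limit. That checks the arithmetic only and not calls near the limit. All 10 members are described. Of the lists, the 2 genes past 2-fold with the largest ratio were named per list and step, and lists of at most 5 genes in full. For lncRNAs the nearest within 300 kb was named (for IGFBP5 and IGFBP2, 3 tied ones), and for genes most alike the one at the smallest distance, for members past 2-fold (IGF2 was added for contrast). Single marker genes, SOCS3, PAPPA, HTRA1 and STC2 at E16, and lnc00073576 by DLK1 were named after their values were seen. The members and lists were chosen with earlier results of these data known. Alternatives covered the pseudocount, filter, centring, fold limit, summed entries and chained tables. Python 3.11.15, numpy 2.4.6, pandas 2.3.3 and matplotlib 3.10.9 were used.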

Additional observations from a re-analysis of the deposited data

How the results depend on the processing

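No paired analysis was possible because each deposited FPKM merges both libraries of a stage, so no replicate could be left out either. Of 78 recomputed values, 62 stayed within 1.5 times the count or, for medians, within the spread between tables. With a pseudocount of 1, 0 genes were lower from E11 to E16 (IGFBP5 at -0.98). Summing all entries of a symbol, or taking the chromosome 10 entry as IGF1 (chosen after seeing the data), left 0 lower from E16 to D1 and 0 from E11 to D1, and both, like leaving out IGF1R, gave a median of 0.52 from E11 to D1. At a 1.5-fold limit, 2 were lower from E16 to D1 and 4 higher from E11 to D1. At 4-fold, 1 was higher from E11 to D1 (IGFBP7), and 0 were higher or lower in the other comparisons or lower from E11 to D1. Direct ratios and ratios chained through the other tables differed by at most 0.02 on the log2 scale for the 10 genes. The tables give neither the fragments behind a value nor a spread between libraries, so precision is unknown.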

Other observations

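Of 12131 entries whose symbol is in RefSeq and which lie on a named chromosome, taking 1 entry per symbol and chromosome, 58 (0.478%) stood on another chromosome than in RefSeq. Among these 58 are the IGF-I entry on chromosome 10 and the GHR entry on chromosome 12 described above. The others were not followed up here.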
